A study of Arabidopsis thaliana with 12 samples.

Results

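Glucosinolates are sulfur-rich defence compounds of the Brassicaceae, and the 42 genes described here cover their synthesis, transport and breakdown in Arabidopsis (Arabidopsis thaliana). The genes were chosen by name and role, not by a cutoff on their values, from 27655 genes in the data. Earlier results of these data were known when they were chosen. They comprise 6 MYB transcription factors, 24 enzymes and carriers of synthesis, 2 transporters, 3 myrosinases, and 7 specifier or modifier proteins that direct breakdown. Of the 42 genes, 41 had a row in both tables and 40 had enough RNA-seq signal for a ratio between the assays. AOP2, a 2-oxoglutarate-dependent dioxygenase that makes alkenyl side chains and is annotated as a pseudogene in the TAIR10.1 reference, was not analysed here.

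Glucosinolate synthesis starts from an amino acid. Methionine, usually after elongation of its side chain, gives the aliphatic compounds, while tryptophan gives the indolic compounds. Cytochromes P450 of the CYP79 family make an aldoxime and those of the CYP83 family activate it, after which sulfur donation, C-S cleavage, glucosylation and sulfation complete the core. The products are stored apart from thioglucosidases called myrosinases, and tissue damage brings them together. Specifier proteins then decide which breakdown products form.

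Ribosome profiling (Ribo-seq), which sequences the mRNA fragments protected by ribosomes, was set beside RNA sequencing (RNA-seq) of the same kind of material, with 6 libraries each. All libraries came from wild-type Col-0 seedlings aged 7 days, grown in liquid MS medium and mock treated with 0.1% DMSO 3 h after lights on, and harvested 20 or 60 min later. The labels used here do not pair libraries with harvests. Each assay has 1 pooled value per gene over all its libraries, so that no replicate spread could be computed and no test between assays or genes was possible. Intervals below are 95% intervals that cover counting error only, and without replicates a narrow interval does not show that a difference would recur in new seedlings.

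The Ribo-seq table totals 299584069 expected counts and the table of RNA-seq totals 51390094. All counts of the 41 measured genes were whole numbers. Among all genes, 75 had a count that was not whole in Ribo-seq and 20 in RNA-seq. Levels are TPM, a share of all protected fragments in Ribo-seq and of all transcripts in RNA-seq, scaled by coding length. Ribosome occupancy is the log2 of a quotient, the Ribo-seq TPM divided by the RNA-seq TPM with 0.1 added to each, minus the median of 21422 nuclear genes with an RNA-seq TPM over 0.1. An occupancy of 0 is thus that of the median nuclear gene, and the quartiles of nuclear genes were -0.54 and 0.46. A gene over 1 or under -1 is more than 2-fold from the median, and such a gene is called above or below. The Ribo-seq descriptions in the labels name root, whereas titles and source name seedlings. In the Ribo-seq table, 5 shoot markers (RuBisCO small subunit, RuBisCO activase and light-harvesting genes) summed to 26200 TPM and 5 root markers to 421 TPM, against 21330 and 199 TPM in the RNA-seq table, so that both assays held shoot and root transcripts.

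Some breakdown genes are close copies, which bears on how their reads were assigned. NSP3, NSP1 and NSP4, which encode nitrile-specifier proteins, lie side by side on chromosome 3 between 5562400 and 5574758 (TAIR10.1). The coding sequence of NSP1 is 94.8% identical to that of NSP4, 92.2% to that of NSP3 and 86.3% to that of NSP2 on chromosome 2. The longest stretch shared without a difference by NSP1 and NSP4 is 366 nucleotides. A window of 90 coding bases from the start of that stretch is shown 5′ to 3′ for the 4 genes, as read from the TAIR10.1 genome, since a footprint that falls there cannot tell NSP1 from NSP4. Capitals mark bases that differ from NSP1, in 4 positions of NSP3 and 8 positions of NSP2.
NSP1, chr3:5567677-5567766, plus strand: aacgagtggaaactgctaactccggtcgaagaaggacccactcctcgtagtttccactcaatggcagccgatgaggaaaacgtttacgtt
NSP4, chr3:5573706-5573795, plus strand: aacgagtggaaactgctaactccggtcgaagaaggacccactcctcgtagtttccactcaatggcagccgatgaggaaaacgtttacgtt
NSP3, chr3:5563712-5563801, plus strand: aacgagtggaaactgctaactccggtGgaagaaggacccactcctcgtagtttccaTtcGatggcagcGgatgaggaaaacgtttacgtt
NSP2, chr2:14029914-14030003, minus strand: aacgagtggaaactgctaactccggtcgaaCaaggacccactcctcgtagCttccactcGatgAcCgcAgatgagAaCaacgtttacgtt

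CYP79F1 and CYP79F2, which convert elongated methionine to aldoximes, are tandem neighbours on chromosome 1 with 91.4% coding identity. Their longest identical stretch is 100 nucleotides, and its first 90 coding bases are shown because both copies read the same there.
CYP79F1, chr1:5609966-5610055, plus strand: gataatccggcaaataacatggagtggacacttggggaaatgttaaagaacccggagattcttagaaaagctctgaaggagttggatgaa
CYP79F2, chr1:5606398-5606487, plus strand: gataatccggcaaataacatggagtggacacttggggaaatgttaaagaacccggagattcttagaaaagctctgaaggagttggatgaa

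Sequence sharing was measured as the share of 28-nucleotide words, about the length of a footprint, that also occur elsewhere in the genome or in other coding sequences. This share was 57.1% for NSP1, 38.0% for NSP4, 25.3% for IMD1, 11.8% for CYP79F1, 11.8% for CYP79F2 and 11.3% for NSP3. The other 34 genes with an occupancy shared less than 10% of their words. With words of 100 nucleotides, the share was 29.2% for NSP1 and 21.8% for NSP4, but 0.066% for each CYP79F gene and 0 for NSP3 and IMD1. How much sequence these genes share thus depends on the length of the fragment that is placed. A sum over genes that share sequence, as given below, cannot restore fragments that were assigned to none of them.

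The pathway was abundant in both assays. The 41 measured genes summed to 5200 TPM in Ribo-seq and 3020 TPM in RNA-seq, a ratio of 1.72. The median nuclear gene had a ratio of 1.08. The first is a ratio of sums, weighted to the most abundant genes, and the second a median over genes, so they are unlike measures. Of the 40 genes with an occupancy, 20 were in the top 10% of nuclear genes by Ribo-seq TPM (at least 78.2 TPM), where the background is 10.0%. By RNA-seq TPM, 16 of the 40 were in the top 10% (at least 55.1 TPM), where the background is again 10.0%. As whole seedlings were used, a gene active in few cells and a gene with little RNA per cell cannot be told apart. The median gene of the 40 had 78.0 TPM in Ribo-seq and 39.4 TPM in RNA-seq, against 8.18 and 8.48 TPM for the median nuclear gene.

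**Figure D1:**
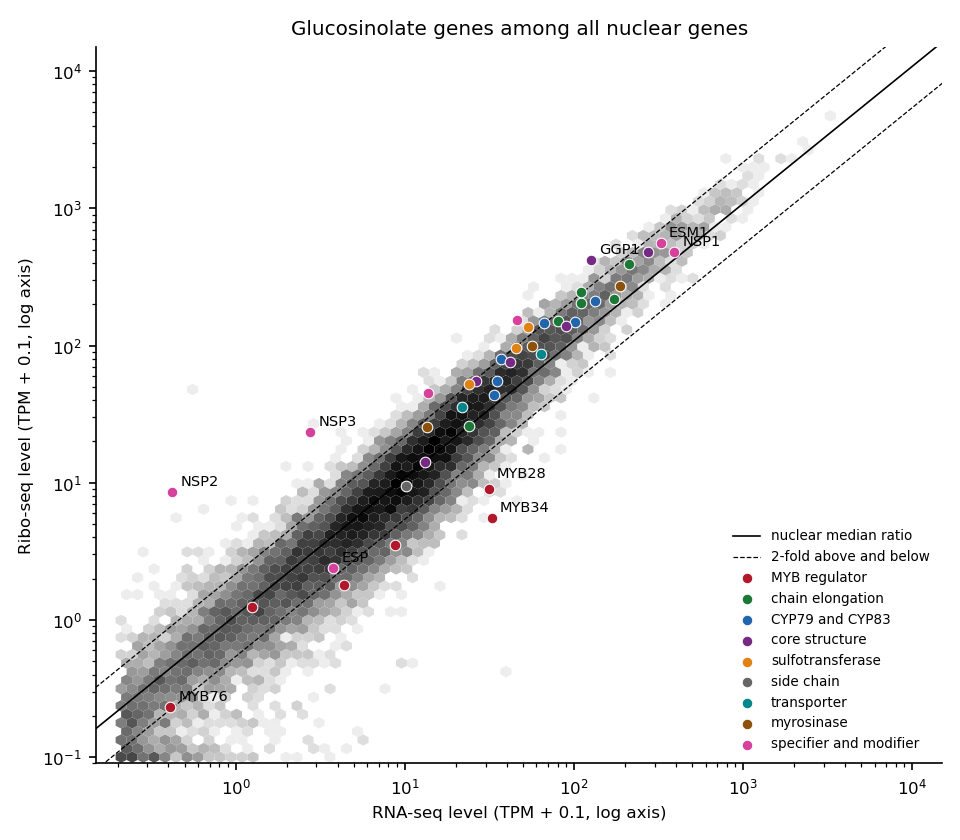
Ribo-seq against RNA-seq level (TPM plus 0.1, both axes log) for 21422 nuclear genes (grey hexagons, darker where more genes fall) and 40 glucosinolate genes (points coloured by step). The solid line is the nuclear median ratio and the dashed lines are 2-fold from it. NSP2 and NSP3 lie far above the upper line, and MYB28 and MYB34 far below the lower line.

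Ribosome occupancy was above that of the median nuclear gene for 31 of the 40 genes and below it for 9, with a median of 0.63. More than 2-fold above were 9 genes (22.5%), where the background is 6.02% of nuclear genes. These were MAM3, CYP79B2, GGP1, SOT16, SOT17, NSP2, NSP3, NSP4 and NSP5. More than 2-fold below were 4 genes (10.0%), where the background is 12.2%, so that the share below is close to that of all nuclear genes. All 4 were MYB regulators.

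**Figure D2:**
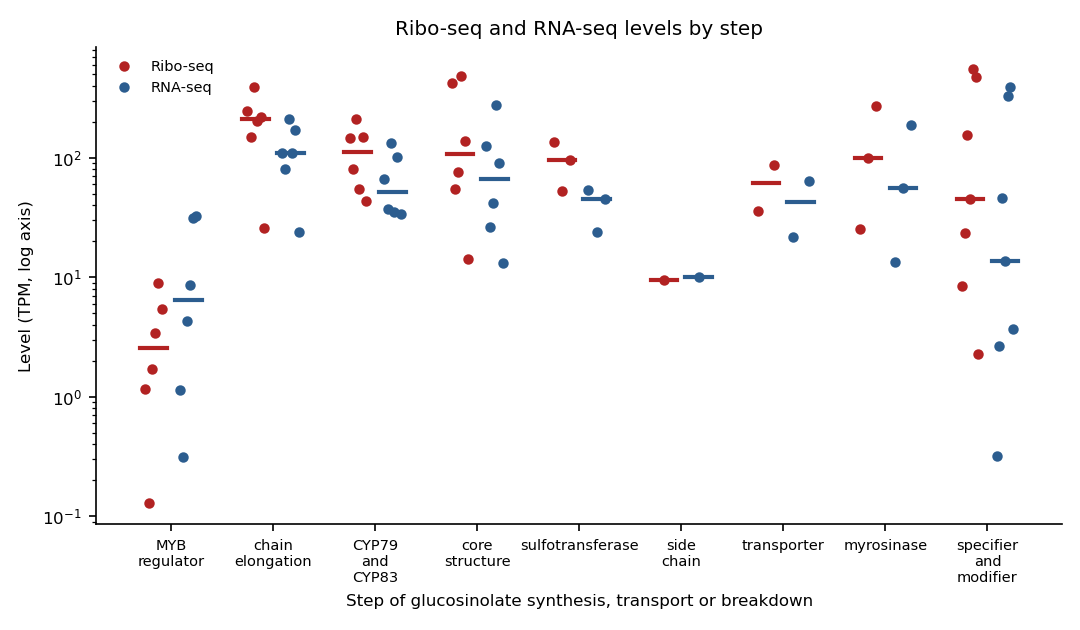
Level (TPM, log axis) of each glucosinolate gene with an occupancy, by step, in Ribo-seq (red, left) and RNA-seq (blue, right), with horizontal bars at the medians. The MYB regulators had a median of 2.57 TPM in Ribo-seq and 6.46 TPM in RNA-seq, and the median was higher in Ribo-seq at every step but the regulators and the single side-chain gene.

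The 6 R2R3-MYB regulators had the lowest median occupancy of the steps, -1.41, with a range from -2.67 to -0.10. MYB28 (AT5G61420), MYB29 (AT5G07690) and MYB76 (AT5G07700) activate aliphatic synthesis, and MYB34 (AT5G60890), MYB51 (AT1G18570) and MYB122 (AT1G74080) activate indolic synthesis. MYB28 had 8.97 TPM in Ribo-seq and 31.2 TPM in RNA-seq, from 2997 and 1894 counts, and an occupancy of -1.90 (-1.98 to -1.82). MYB34 had 5.43 TPM in Ribo-seq and 32.4 TPM in RNA-seq, from 1582 and 1512 counts, and the lowest occupancy of all 40 genes at -2.67 (-2.77 to -2.57). Among nuclear genes, MYB28 stood at percentile 52.3 in Ribo-seq and 82.4 in RNA-seq, and MYB34 at 40.6 in Ribo-seq and 83.2 in RNA-seq.

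MYB29, which partly overlaps with MYB28 in function, had 1.70 TPM in Ribo-seq and 4.27 TPM in RNA-seq, with an occupancy of -1.40 (-1.62 to -1.17). MYB51 had 3.44 TPM in Ribo-seq and 8.64 TPM in RNA-seq, with an occupancy of -1.42 (-1.57 to -1.27). The other two regulators were not called. MYB76, the neighbour of MYB29 on chromosome 5, had only 44 Ribo-seq and 17 RNA-seq counts (0.13 and 0.31 TPM). Its occupancy was -0.95, with an interval from -1.79 to -0.05. With a pseudocount of 1 the value was -0.30, and with counts not scaled by length it was -1.01, past the call. MYB122 had 381 Ribo-seq and 62 RNA-seq counts (1.15 and 1.14 TPM), and its occupancy of -0.10 (-0.49 to 0.31) could not be told from the nuclear median at this depth. MYB29 had 13.1-fold more Ribo-seq TPM than MYB76 (9.62 to 17.8) and 13.8-fold more RNA-seq TPM (8.42 to 22.5), and the difference in occupancy, -0.45, had an interval that spans 0 (-1.28 to 0.39).

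Of 5 further regulators on a list of other pathway genes, 0 were more than 2-fold below, where the background of 12.2% leaves little to compare in so few genes. The bHLH factors MYC2, MYC3 and MYC4, which act with these MYBs, had occupancies of -0.35, 0.21 and 0.18, the sulfur-limitation factor SLIM1 had -0.40, and the calmodulin-binding protein IQD1 had -0.89. Among 75 other annotated MYB genes, a set chosen after the regulators' values had been seen, the median occupancy was -0.22, and 7 (9.33%) were more than 2-fold below, near the background of 12.2%.

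Annotated leaders, the mRNA stretch before the start codon, were also compared. An upstream ATG in the leader can engage ribosomes before they reach the coding sequence. MYB34 has a leader of 738 nucleotides with 7 upstream ATGs, MYB29 one of 421 with 10, MYB28 one of 392 with 5, MYB51 one of 366 with 4, MYB122 one of 394 with 3, and MYB76 one of 62 with 3. The median leader of 20457 nuclear genes with an annotated leader was 184 nucleotides, and 90% of leaders were at most 419 nucleotides. All 6 regulators thus have at least 3 upstream ATGs, against 25.6% of nuclear genes. So do 8 other genes of the 40, and in the wider list IQD1 has a leader of 698 nucleotides with 10 and MYC2 one of 494 with 4.

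Across nuclear genes, the median occupancy was 0.18 with no upstream ATG, 0.0027 with 1 or 2, and -0.27 with 3 or more, and 5.44%, 9.96% and 20.9% of these genes were more than 2-fold below. The order of the 40 glucosinolate genes was the same, with medians of 0.79 over 12 genes, 0.62 over 14 genes and -0.05 over 14 genes. In the last class, the 8 genes that are not regulators had a median of 0.43, and ESM1 (AT3G14210) with 6 upstream ATGs and NSP1 (AT3G16400) with 5 had occupancies of 0.66 and 0.17. The part of upstream ATGs in the regulators' values was not tested.

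**Figure D3:**
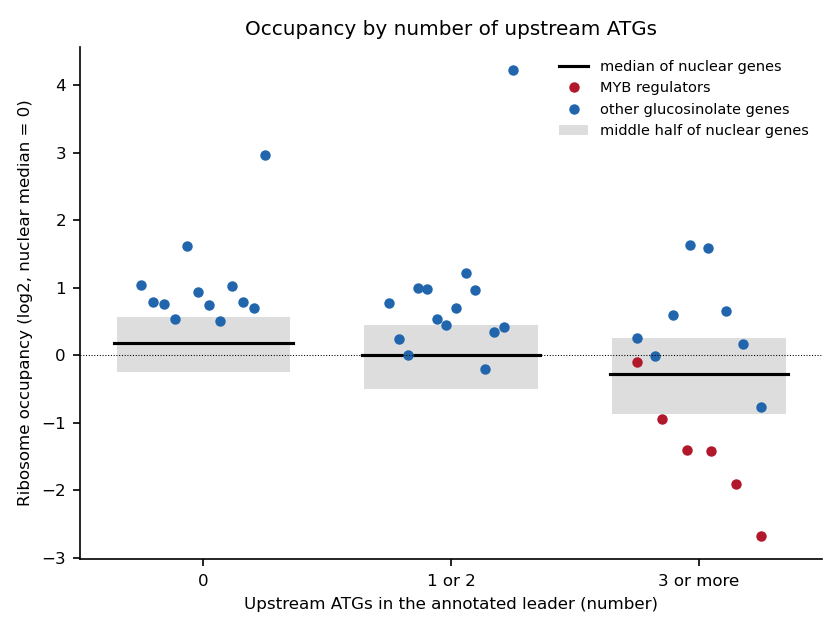
Ribosome occupancy (log2, nuclear median at 0) by the number of upstream ATGs in the annotated leader. Grey bars span the quartiles of nuclear genes with their median as a black line, and points are MYB regulators (red) and the other glucosinolate genes (blue). All 6 regulators fall in the class with 3 or more, where 5 of them lie below the nuclear median of -0.27.

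Chain elongation of methionine was among the most abundant steps, with a summed level of 1234 TPM in Ribo-seq and 705 TPM in RNA-seq over 6 genes. All 6 had an occupancy at or above the nuclear median, and 1 was called above. IIL1 (AT4G13430), the large subunit of isopropylmalate isomerase, led in level with 390 TPM in Ribo-seq and 210 TPM in RNA-seq, and had an occupancy of 0.77 (0.75 to 0.80). BCAT4 (AT3G19710), the aminotransferase that opens the cycle, had 202 TPM in Ribo-seq and 110 TPM in RNA-seq, and an occupancy of 0.76 (0.73 to 0.80). The 2 genes thus had nearly the same occupancy at unequal levels.

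MAM1 (AT5G23010) and MAM3 (AT5G23020), the methylthioalkylmalate synthases that set side-chain length, lie 11144 nucleotides apart on chromosome 5 and share 83.8% of their coding bases. MAM3 had 246 TPM in Ribo-seq and 110 TPM in RNA-seq, and its occupancy of 1.05 (1.02 to 1.08) was just above the call. MAM1 had 150 TPM in Ribo-seq and 79.8 TPM in RNA-seq, with an occupancy of 0.79 (0.76 to 0.83). The difference, MAM1 minus MAM3, was -0.25 (-0.30 to -0.21), and the call of MAM3 was lost when levels were scaled as counts without a length term (CPM) or to whole coding lengths (0.92 and 0.91).

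The remaining genes of this step were nearer to the nuclear median. IMD1 (AT5G14200), an isopropylmalate dehydrogenase, had 220 TPM in Ribo-seq and 171 TPM in RNA-seq, and an occupancy of 0.24 (0.22 to 0.27). It shares sequence with IMD3, a dehydrogenase outside the list with 94.98% coding identity, and the summed TPM of the pair gave 0.33 (0.31 to 0.36). BAT5 (AT4G12030), the plastid carrier of the 2-oxo acids, was the least abundant of the step with 25.9 TPM in Ribo-seq and 23.8 TPM in RNA-seq, and had an occupancy of 0.0024 (-0.08 to 0.08).

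Each of the 6 CYP79 and CYP83 genes had an occupancy above the nuclear median, between 0.26 and 1.00. CYP83B1 (AT4G31500), the indolic branch enzyme, was the most abundant with 211 TPM in Ribo-seq and 134 TPM in RNA-seq. CYP83A1 (AT4G13770), its aliphatic counterpart, had 149 TPM in Ribo-seq and 101 TPM in RNA-seq. Their occupancies of 0.45 (0.42 to 0.48) for CYP83A1 and 0.54 (0.51 to 0.57) for CYP83B1 differed by -0.09 (-0.13 to -0.05).

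Within each CYP79 pair the copies differed more than the branches did. CYP79F1 (AT1G16410) had 43.5 TPM in Ribo-seq and 33.5 TPM in RNA-seq, and an occupancy of 0.26 (0.21 to 0.32). CYP79F2 (AT1G16400) had 79.9 TPM in Ribo-seq and 37.1 TPM in RNA-seq, and an occupancy of 0.99 (0.94 to 1.04). The neighbours therefore had similar RNA-seq levels (a ratio of 0.90, 0.86 to 0.95) but unequal Ribo-seq levels (0.54, 0.54 to 0.55), and differed in occupancy by -0.73 (-0.80 to -0.65). Each gene shares 11.8% of its 28-nucleotide words, as in the sequence shown above, and their summed TPM gave an occupancy of 0.69 (0.65 to 0.73).

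CYP79B2 (AT4G39950) and CYP79B3 (AT2G22330), which convert tryptophan to indole-3-acetaldoxime, are on different chromosomes and share under 1% of their words. CYP79B2 had 145 TPM in Ribo-seq and 66.8 TPM in RNA-seq, and its occupancy of 1.0002 (0.96 to 1.04) sat on the line of the call, which it lost under 3 of the 4 other scalings or filters. CYP79B3 had 55.1 TPM in Ribo-seq and 35.0 TPM in RNA-seq, and an occupancy of 0.54 (0.49 to 0.59). The difference, CYP79B2 minus CYP79B3, was 0.46 (0.40 to 0.53).

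The 6 genes that build the core structure had a median occupancy of 0.73, with a range from -0.0048 to 1.62. The highest of them, GGP1, was also the highest of the synthetic enzymes. GGP1 (AT4G30530), a gamma-glutamyl peptidase that trims the glutathione conjugate, had 419 TPM in Ribo-seq and 126 TPM in RNA-seq, and an occupancy of 1.62 (1.58 to 1.66). GGP3, its relative outside the list, had 51.9 TPM in Ribo-seq and 25.4 TPM in RNA-seq, with an occupancy of 0.91 (0.82 to 1.01). GGP1 was thus higher than GGP3 in both level and occupancy.

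GSTU20 (AT1G78370) and GSTF11 (AT3G03190) are the glutathione transferases assigned to the aliphatic branch. GSTU20 had 484 TPM in Ribo-seq and 275 TPM in RNA-seq, the highest level of any synthetic gene in the list, and an occupancy of 0.70 (0.67 to 0.73). GSTF11 had 14.1 TPM in Ribo-seq and 13.1 TPM in RNA-seq, and its occupancy of -0.0048 (-0.16 to 0.15) could not be told from the nuclear median. SUR1 (AT2G20610), the C-S lyase common to both branches, had 138 TPM in Ribo-seq and 89.9 TPM in RNA-seq, and an occupancy of 0.51 (0.47 to 0.54).

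The S-glucosyltransferases were lower in level. UGT74C1 (AT2G31790), linked to aliphatic substrates, had 76.1 TPM in Ribo-seq and 41.7 TPM in RNA-seq, with an occupancy of 0.75 (0.70 to 0.80). UGT74B1 (AT1G24100), which accepts a wider range of substrates, had 54.9 TPM in Ribo-seq and 26.4 TPM in RNA-seq, with an occupancy of 0.94 (0.87 to 1.00).

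The 3 sulfotransferases that finish the core had occupancies close to 2-fold above the nuclear median, with a median of 1.02. SOT16 (AT1G74100), which prefers indolic precursors, had 135 TPM in Ribo-seq and 53.4 TPM in RNA-seq, and an occupancy of 1.23 (1.17 to 1.28). SOT18 (AT1G74090), an aliphatic enzyme whose gene lies 151 nucleotides from SOT16, had 95.5 TPM in Ribo-seq and 45.1 TPM in RNA-seq, and an occupancy of 0.97 (0.91 to 1.02). Their coding sequences are 79.4% identical, and the difference, SOT18 minus SOT16, was -0.26 (-0.34 to -0.18). SOT17 (AT1G18590), the other aliphatic sulfotransferase, had 52.5 TPM in Ribo-seq and 23.8 TPM in RNA-seq, and an occupancy of 1.02 (0.94 to 1.10), a call that 3 of the 4 other scalings or filters took below 1. The genes share less than 1% of their 28-nucleotide words.

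Of the 3 side-chain genes of the list, FMOGS-OX1 and AOP3 were measured, while 12 others with an occupancy belong to the wider list and summed to 785 TPM in Ribo-seq and 502 TPM in RNA-seq. FMOGS-OX1 (AT1G65860), a flavin monooxygenase that oxidises the side-chain sulfur, had 9.42 TPM in Ribo-seq and 10.0 TPM in RNA-seq, and an occupancy of -0.20 (-0.31 to -0.09). AOP3 (AT4G03050), which makes hydroxyalkyl side chains in other accessions, had 13 Ribo-seq and 3 RNA-seq counts (0.03 and 0.04 TPM), too few for a ratio. Its neighbour AOP2 (AT4G03060) has no value, so the pair could not be compared.

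GTR1 (AT3G47960) and GTR2 (AT5G62680), the plasma membrane importers that load glucosinolates into the phloem, both had occupancies above the nuclear median. GTR1 had 35.6 TPM in Ribo-seq and 21.7 TPM in RNA-seq, with an occupancy of 0.60 (0.54 to 0.66). GTR2 had 87.3 TPM in Ribo-seq and 63.3 TPM in RNA-seq, with an occupancy of 0.35 (0.31 to 0.38). GTR1 was thus lower in level, at 0.41 of GTR2 in Ribo-seq and 0.34 of it in RNA-seq, but higher in occupancy by 0.25 (0.18 to 0.32).

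**Figure D4:**
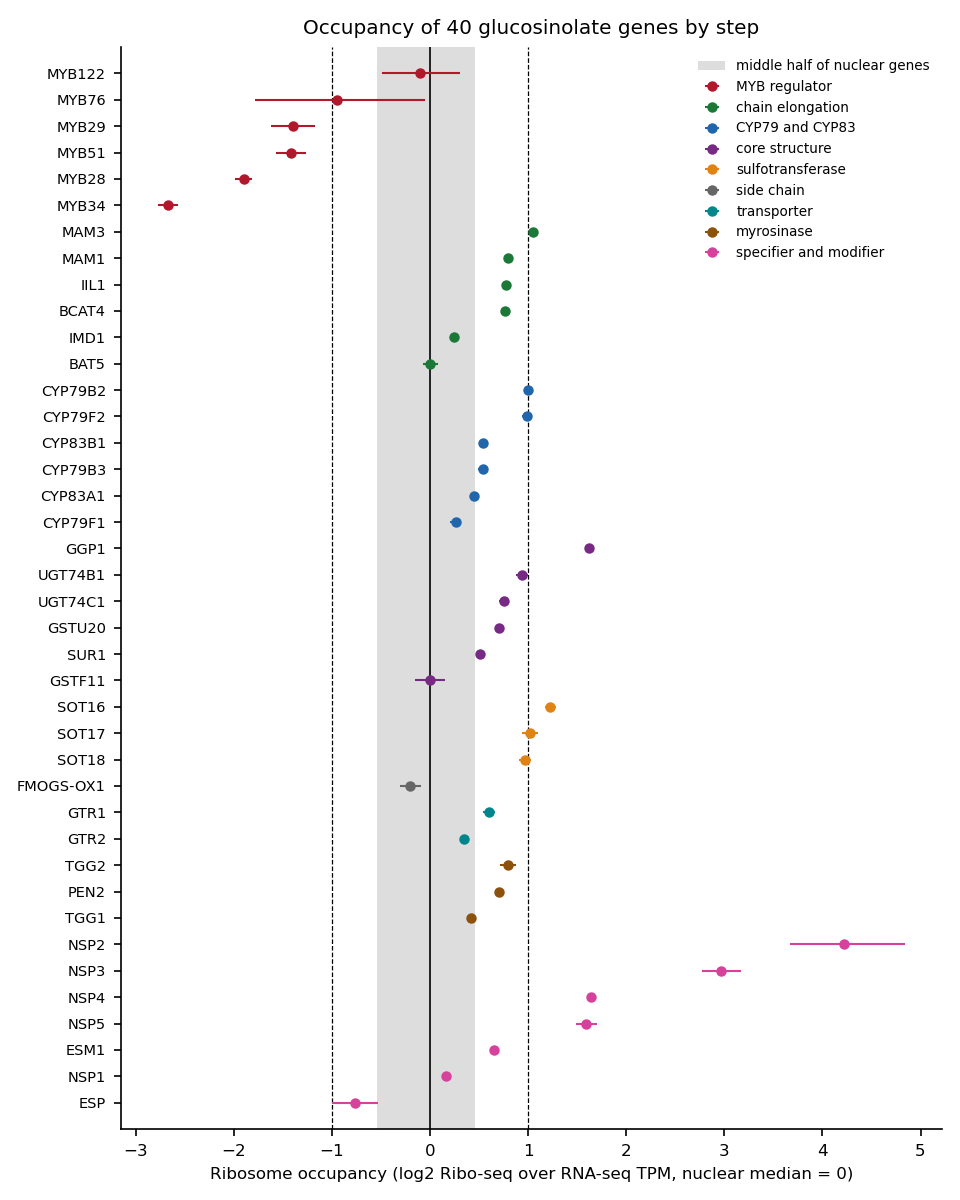
Ribosome occupancy (log2 of Ribo-seq over RNA-seq TPM, nuclear median at 0) of 40 glucosinolate genes ordered by step, with 95% counting intervals as bars. The grey band spans the quartiles of nuclear genes (-0.54 to 0.46) and dashed lines mark 2-fold. Regulators lie to the left, from -2.67 to -0.10, and nitrile-specifier genes reach 4.22 at the right.

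Among the myrosinases, TGG1 (AT5G26000), the main enzyme of guard cells and myrosin cells, had 271 TPM in Ribo-seq and 188 TPM in RNA-seq, and an occupancy of 0.41 (0.39 to 0.44). TGG2 (AT5G25980), its tandem neighbour with 82.6% coding identity, had 25.2 TPM in Ribo-seq and 13.3 TPM in RNA-seq, and an occupancy of 0.80 (0.71 to 0.88). TGG1 exceeded TGG2 by 10.8-fold in Ribo-seq (10.6 to 10.9) and by 14.1-fold in RNA-seq (13.3 to 14.9), so that the gap was narrower among footprints, with a difference in occupancy of -0.38 (-0.47 to -0.29). PEN2 (AT2G44490), an atypical myrosinase that hydrolyses indolic glucosinolates in living cells, had 98.8 TPM in Ribo-seq and 56.0 TPM in RNA-seq, and an occupancy of 0.70 (0.66 to 0.74).

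The specifier and modifier proteins covered the widest range of any step, from -0.77 to 4.22, and held 4 of the 9 genes called above. ESM1, an epithiospecifier modifier that favours isothiocyanates, was the most abundant gene of the list in Ribo-seq with 555 TPM, against 325 TPM in RNA-seq, and had an occupancy of 0.66 (0.63 to 0.68). NSP1, a nitrile-specifier protein, was the most abundant in RNA-seq with 477 TPM in Ribo-seq and 393 TPM in RNA-seq, and had an occupancy of 0.17 (0.15 to 0.18). ESP (AT1G54040), the epithiospecifier protein, had 2.29 TPM in Ribo-seq and 3.66 TPM in RNA-seq, and an occupancy of -0.77 (-1.002 to -0.53), the lowest outside the regulators.

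NSP2 (AT2G33070) to NSP5 (AT5G48180) all had more than 2-fold higher occupancy than the median nuclear gene. NSP2 had 3946 Ribo-seq counts but only 26 RNA-seq counts (8.39 and 0.32 TPM), and the highest occupancy of the list at 4.22 (3.67 to 4.84), which was 2.74 with a pseudocount of 1. NSP3 (AT3G16390) had 10851 Ribo-seq and 215 RNA-seq counts (23.3 and 2.66 TPM), and an occupancy of 2.97 (2.77 to 3.17). NSP2 stood at percentile 50.7 of nuclear genes in Ribo-seq and 5.52 in RNA-seq, and NSP3 at 73.3 in Ribo-seq and 25.5 in RNA-seq.

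NSP4 (AT3G16410) had 155 TPM in Ribo-seq and 45.8 TPM in RNA-seq, and an occupancy of 1.64 (1.60 to 1.68). NSP5, the most divergent of the family with 63.9% coding identity to NSP1 and no shared words of 28 nucleotides, had 44.8 TPM in Ribo-seq and 13.6 TPM in RNA-seq, and an occupancy of 1.59 (1.49 to 1.70). Both genes were thus near 3-fold above the nuclear median (3.11-fold for NSP4 and 3.02-fold for NSP5).

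NSP1 exceeded its neighbours by far more in RNA-seq than in Ribo-seq. NSP1 over NSP3 was 20.5-fold in Ribo-seq (20.1 to 20.9) and 148-fold in RNA-seq (129 to 169). NSP1 over NSP4 was 3.09-fold in Ribo-seq (3.06 to 3.11) and 8.58-fold in RNA-seq (8.33 to 8.84). The differences in occupancy were -2.80 (-3.00 to -2.61) for NSP1 minus NSP3 and -1.47 (-1.52 to -1.43) for NSP1 minus NSP4. The window shown above is identical in NSP1 and NSP4 and differs at 4 positions in NSP3. Summed, the 3 neighbours had an occupancy of 0.45 (0.44 to 0.47), between the quartiles of nuclear genes but close to the upper one. This sum leaves out any fragment that was assigned to none of the 3 genes. The part of shared sequence in the separate values of NSP1, NSP3 and NSP4 was not tested.

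Comparison of the branches began with enzymes and regulators combined. The 18 aliphatic genes with an occupancy had a median of 0.57 and the 7 indolic genes a median of 0.54. Of the 18 aliphatic genes, 2 were called above and 2 below, and of the 7 indolic genes likewise 2 and 2, where the background is 6.02% above and 12.2% below. In both branches the genes called below were MYB regulators. Without the MYB regulators, the medians were 0.75 over 15 aliphatic genes and 0.77 over 4 indolic genes. The 15 aliphatic genes summed to 2238 TPM in Ribo-seq and 1285 TPM in RNA-seq, against 546 and 289 TPM for the 4 indolic genes. The indolic genes lack the elongation step, and the indolic glutathione transferases GSTF9 and GSTF10 are on the wider list only. In that wider list the order was the reverse. Its 11 indolic genes summed to 3031 and 1536 TPM, and its 9 aliphatic genes with an occupancy to 844 and 564 TPM. GSTF9 alone held 1773 and 797 TPM of the indolic sums, which also include the tryptophan supply genes ASA1 and TSB1. Median occupancies in the wider list were 0.47 for the aliphatic and 0.77 for the indolic genes. The sums of the branches thus depend on which genes are listed.

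At the steps that both branches pass, the aliphatic enzymes had slightly lower occupancies. For the first step, CYP79F1 and CYP79F2 together had 123 TPM in Ribo-seq and 70.6 TPM in RNA-seq, against 200 and 102 TPM for CYP79B2 and CYP79B3, and the difference in occupancy was -0.17 (-0.21 to -0.12). For sulfation, SOT17 and SOT18 together had 148 TPM in Ribo-seq and 68.9 TPM in RNA-seq, against 135 and 53.4 TPM for SOT16, and the difference was -0.24 (-0.31 to -0.17). With CYP83A1 minus CYP83B1 at -0.09, the 3 enzyme differences between the branches were negative and each was under 0.25 in size, which is small beside the distance between the quartiles of nuclear genes. For glucosylation, UGT74C1 minus UGT74B1, which serves both branches, was -0.19 (-0.27 to -0.11).

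The regulators of the branches differed in the other direction. MYB28, MYB29 and MYB76 summed to 10.8 TPM in Ribo-seq and 35.7 TPM in RNA-seq, against 10.0 and 42.2 TPM for MYB34, MYB51 and MYB122. Occupancy of the sums was -1.83 for the aliphatic and -2.18 for the indolic regulators, a difference of 0.35 (0.24 to 0.46) that shrank to 0.14 when CPM was used. MYB28 and MYB34 make up most of these sums.

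**Figure D5:**
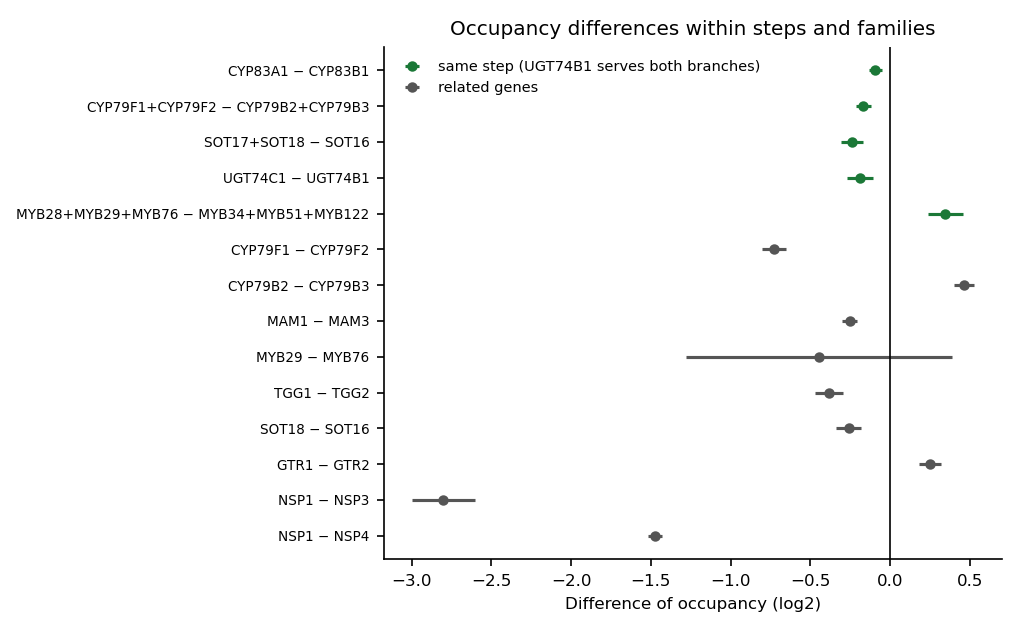
Difference of ribosome occupancy (log2) between genes of the same step (green), aliphatic minus indolic except that UGT74B1 serves both branches, and between related genes (grey), with 95% counting intervals as bars. The 4 enzyme steps lie between -0.24 and -0.09, while CYP79F1 minus CYP79F2 is at -0.73 and NSP1 minus NSP3 at -2.80.

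A wider set of 42 other genes of the pathway, of which 40 had an occupancy, gave a median of 0.46, with 35 genes above the nuclear median. Of the 40, 4 (10.0%) were called above and 0 below, where the background is 6.02% and 12.2%. The genes called above were the indolic glutathione transferase GSTF9 at 1.04, the methyltransferase IGMT2 at 1.41, the root myrosinase TGG4 at 1.06 and the nitrilase NIT2 at 4.82. IGMT2 and TGG4 share 56.7% and 57.1% of their 28-nucleotide words with other places in the genome, and NIT2 shares 22.0%.

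NIT2 resembled NSP2 and NSP3, with 176 TPM in Ribo-seq and 5.67 TPM in RNA-seq, while its close copy NIT1 had 731 TPM in Ribo-seq and 621 TPM in RNA-seq. NIT1, NIT2 and NIT3 together had an occupancy of 0.45 (0.43 to 0.46). The 4 most abundant of the wider set as RNA were PYK10, a beta-glucosidase of root endoplasmic reticulum bodies, with 4634 TPM in Ribo-seq and 3121 TPM in RNA-seq, followed by GSTF9, NIT1 and GSTF10. PYK10 alone thus had a level close to that of all 41 listed genes together, with an occupancy of 0.45 (0.45 to 0.46).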

How the data were processed

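The authors deposited 1 RSEM gene table per assay with expected counts (not normalized), TPM and FPKM, computed over effective coding lengths. Over the 40 genes with an occupancy, these were a median of 27 nucleotides under the coding length in Ribo-seq and 186 in RNA-seq. ESP, in contrast, had a shorter effective length in Ribo-seq (781 nucleotides) than in RNA-seq (822 nucleotides). FPKM, as deposited by the authors, was not used. Per the submitters' processing notes, RSEM 1.3.1, STAR and Bowtie2 2.3.4.1 were used. The sources used here do not say how the 6 libraries per assay were combined, nor with which annotation.

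The glucosinolate genes, the wider list and the comparisons were chosen with earlier results of these data known. Values were printed for the most abundant genes of each step, every called gene, genes with few counts and both sides of each pair. Expected counts were rounded for intervals. Gene intervals are exact conditional binomial intervals of the count ratio, moved to the occupancy with its pseudocount. Pair intervals use the delta method on the counts. Both hold the nuclear median fixed. Levels, ratios and intervals were computed in Python 3.11.15 with pandas 2.3.3 and scipy 1.17.1, and coding identities with Biopython 1.88. The calculation was tested on simulated counts drawn from the counting model that the intervals assume. Such a test checks the arithmetic and cannot show how shared sequence or variation between libraries affects the values. Gene models and sequences came from TAIR10.1 (RefSeq), taking the model nearest in coding length to that of the RNA-seq data, which was equal for 31 of 41 genes. Models were not matched to the lengths of the Ribo-seq data. Leaders are as annotated there. Alternatives were a pseudocount of 1, CPM (counts with no length term), whole coding lengths, an RNA-seq TPM over 1, at least 100 counts, and leaving out genes that share sequence.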

Additional observations from a re-analysis of the deposited data

How the results depend on the processing

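Counts of called genes changed by 1.5 times at most under each alternative tried, from 6 to 10 above and from 4 to 6 below. The share of all nuclear genes called was computed for the main setting only. Counts under the alternatives therefore have no background beside them. With CPM, MYB76 (-1.01) and ESP (-1.12) were also more than 2-fold below. MAM3 and SOT17 lost their calls with CPM (0.92 and 0.98) and whole coding lengths (0.91 and 0.96), SOT17 with an RNA-seq TPM over 1 (0.99), and CYP79B2 with these 3 settings (0.78, 0.84 and 0.96). The same minimum left MYB76 and NSP2 without a value. Median occupancies were 0.46 over all genes, 0.46 for aliphatic and 0.36 for indolic genes with CPM, and 0.48, 0.47 and 0.38 with whole coding lengths. The aliphatic median was 0.67 with an RNA-seq TPM over 1, 0.70 with at least 100 counts, 0.70 without genes that share sequence, and 0.75 without regulators, where the indolic median was 0.77. Counting NSP1, NSP3 and NSP4 as 1 gene, an alternative chosen after seeing the data, left 7 genes above and 4 below. CYP83A1 minus CYP83B1 was -0.09 with a pseudocount of 1, CPM and whole coding lengths. A pseudocount of 1 gave NSP2 an occupancy of 2.74 and MYB76 one of -0.30. No paired analysis was possible because each assay has 1 pooled value per gene. With no replicate values, intervals cover counting error only, and no library could be left out.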
